A study of Mus musculus with 11 samples.

Results

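The growth hormone and insulin-like growth factor (IGF) axis was followed through 10 genes chosen by symbol, out of 20893 genes in the deposited table of mouse liver RNA-seq: the growth hormone receptor Ghr, its signalling genes Stat5b and Socs2, the ligand Igf1, the acid-labile subunit Igfals, the receptor Igf1r and the binding proteins Igfbp1, Igfbp2, Igfbp3 and Igfbp4. The rule itself used no measured value, but the members and all gene lists were chosen with earlier results of these data known. All 10 passed the filter on low values. Total RNA of 11 whole livers of C57BL/6 mice was sequenced, 1 library per liver. The 4 controls carried ROSA26-rtTA-IRES-EGFP without the tetYAP transgene and received doxycycline food for 7 days, and the induced mice carried ROSA26-rtTA-IRES-EGFP together with tetYAP and received that food for 3 days (4 livers) or 7 days (3 livers). The transgene encodes YAP S127A, a constitutively active form of the transcriptional coactivator YAP. According to the study's methods, rtTA, which switches it on under doxycycline, was combined with Alb-CRE, a recombinase driven in hepatocytes by the albumin promoter. The labels do not say whether the controls carried Alb-CRE, and they give no age. There was no 3-day control, so the diet of the 3-day group was shorter than that of the controls.

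Growth hormone from the pituitary binds GHR on hepatocytes, which activates the kinase JAK2 and the transcription factor STAT5B. STAT5B in turn drives Igf1 and Igfals, and it drives Socs2 and Cish, which limit the same signal. Most circulating IGF1 comes from the liver and travels in a complex with IGFBP3 and the acid-labile subunit, while IGFBP1 is an insulin-repressed binding protein that rises on fasting. Hepatocytes themselves carry little IGF1 receptor. The pulsatile or steady pattern of growth hormone also sets the sex difference of many liver genes, through STAT5B.

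The 4 control libraries held 1251396 to 5495697 reads on genes, the 3-day libraries 2660233 to 3681416 and the 7-day libraries 5312486 to 5941357, so the longest induction also had the deepest sequencing. By their Xist and Ddx3y levels, 2 of 4 control and 2 of 4 of the 3-day livers were female, while all 3 of the 7-day livers were female. Male livers were thus not measured at 7 days, and each member was also compared among female livers. The row of Yap1 lay at 13.9 to 21.1 eRPKM in controls and at 17.4 to 19.0 at 7 days, so that it does not check the labels, whereas Ctgf, a known YAP target, lay at 5.20 to 14.2, 15.3 to 34.2 and 87.3 to 103 in the 3 groups. At 3 days Ctgf was at an adjusted p of 0.0833 with limma. Cyr61, another target, lay at 5.76 to 14.3, 26.8 to 53.4 and 90.5 to 91.3. Ankrd1, also a target, lay at 0.457 to 0.879, 0 to 0.299 and 15.4 to 20.1, so below every control at 3 days. eRPKM is the deposited unit, reads on a gene scaled to its length and to the reads of the library. The densest genes stood apart: Alb lay at 1147 to 1472 reads per kilobase in every library whatever its depth, so the highest eRPKM of a library ran from 245 in 7-day liver 2 to 1024 in control 4. The plot of read density against depth shows Alb beside the 4 most abundant members, which lay below it.

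**Figure D1:**
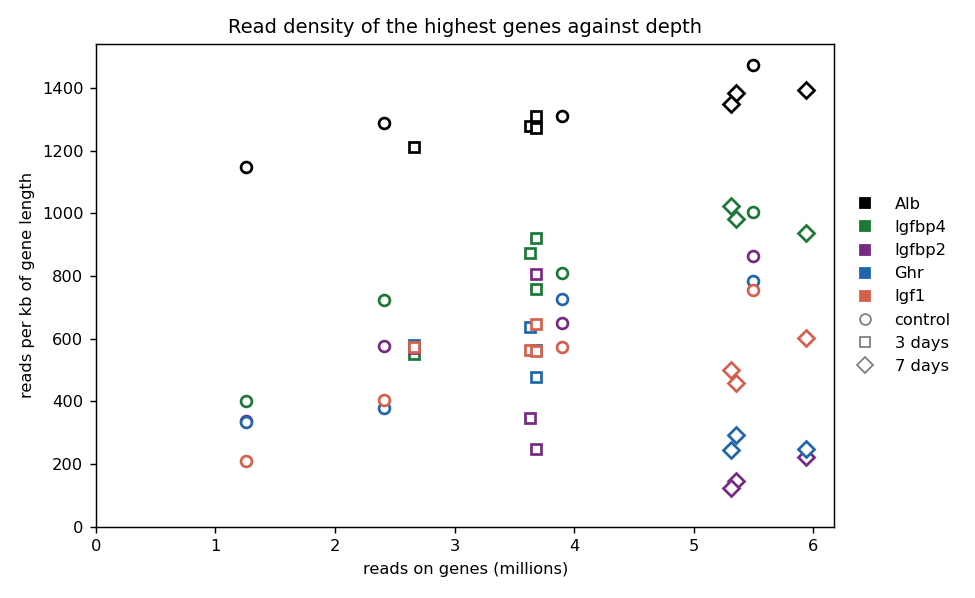
Reads per kilobase of gene length (vertical axis) against reads on genes (horizontal axis) for Alb and 4 members, 1 point per liver, with the gene given by colour and the group by shape. Alb stays between 1147 and 1472 reads per kilobase, while Ghr and Igfbp2 lie lower in the 3 7-day livers than in the control of like depth.

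Promoters of Igfals, Igfbp1 and Igfbp3 are shown because the first holds the letters of STAT5, the factor through which growth hormone acts, and the other two belong to neighbouring genes that moved in opposite directions from 3 to 7 days. RefSeq starts on GRCm38.p6 were matched for 9 of 10 members, with 14 windows of 250 bases before a start. Letters were searched on both strands: TTCNNNGAA for STAT5, GGAATG for TEAD, CAAAACAA for FOXO and CAAAGTCCA for HNF4A. The STAT5 letters stood in 2 of the 14 windows, both of Igfals, against 7.02% of 32851 windows of all genes, and the FOXO letters in 1, that of Igfbp1, against 2.21%. The TEAD letters stood in 1 window, 39 bases before Igfals start 1, against 12.6% of all windows, and the HNF4A letters in none, against 0.384%. The window of Igfals start 2, on the plus strand at chr17:24877981-24878230, has its STAT5 match beginning 58 bases before the start. That of Igfbp1, on the plus strand at chr11:7197537-7197786, has its FOXO match beginning 108 bases before the start. That of Igfbp3, on the minus strand at chr11:7213924-7214173, holds none of the 4. Capitals mark a match, and each window is written 5′ to 3′ toward the start.
Igfals (start 2): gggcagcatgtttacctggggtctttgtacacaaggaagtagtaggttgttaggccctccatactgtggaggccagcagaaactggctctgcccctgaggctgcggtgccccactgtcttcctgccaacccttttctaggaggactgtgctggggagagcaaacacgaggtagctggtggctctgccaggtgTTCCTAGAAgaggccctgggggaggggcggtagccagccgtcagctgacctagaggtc
Igfbp1: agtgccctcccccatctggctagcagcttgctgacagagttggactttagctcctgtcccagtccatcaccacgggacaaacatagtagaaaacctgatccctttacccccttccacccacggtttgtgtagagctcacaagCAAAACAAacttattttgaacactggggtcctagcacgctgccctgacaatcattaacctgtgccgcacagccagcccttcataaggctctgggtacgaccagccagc
Igfbp3: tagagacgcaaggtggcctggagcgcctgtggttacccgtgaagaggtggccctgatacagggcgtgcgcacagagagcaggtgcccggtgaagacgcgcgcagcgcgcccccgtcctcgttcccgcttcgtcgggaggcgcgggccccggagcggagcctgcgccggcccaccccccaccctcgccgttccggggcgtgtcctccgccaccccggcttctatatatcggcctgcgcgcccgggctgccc
These matches describe the letters of short windows, and binding was not measured in these libraries. Some windows lay in mm9 exons of their own gene. The only Igf1 window did so over all 250 bases. That of Igfals start 1 did so over 189 bases, its TEAD match included. The windows of Igfals start 2, Igfbp1 and Igfbp3 held 0, 5 and 0 exon bases. In the mm9 annotation (GENCODE M1), Igfbp1 (chromosome 11, 7097785 to 7102549, plus strand) and Igfbp3 (chromosome 11, 7106089 to 7113926, minus strand) lie end to end with 3539 bases between them. No exon of the 10 members overlapped an exon of another gene.

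By 7 days of YAP induction the liver arm of the axis was lower at 5 points, the receptor Ghr, the ligand Igf1 and the proteins Igfals, Igfbp3 and Igfbp2 that carry it, and none of these was called at 3 days. Each comparison was fitted with limma on log2(eRPKM + 0.5) over the 14244 genes that passed the filter, and a gene was called at an adjusted p under 0.01 with an absolute log2 fold change above 0.5. At 7 days against control 5 of 10 members were called, against 23.8% of all genes tested, and all 5 fell, against 5.77% of all genes that fell and 18.0% that rose. The median log2 fold change of the 10 members was -0.60, beside 0.26 over all genes tested. That upward shift of all genes was 0.03 under median-ratio size factors and -0.08 under quantile normalization, and the share of called genes that rose went from 75.7% to 60.9% and 50.5%. Among female livers only, 4 of 10 were called, against 15.7% of all genes. The 5 genes that fell at 7 days were also those whose 7-day livers lay outside the range of the controls, a pattern shown by 50.0% of all genes.

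**Figure D2:**
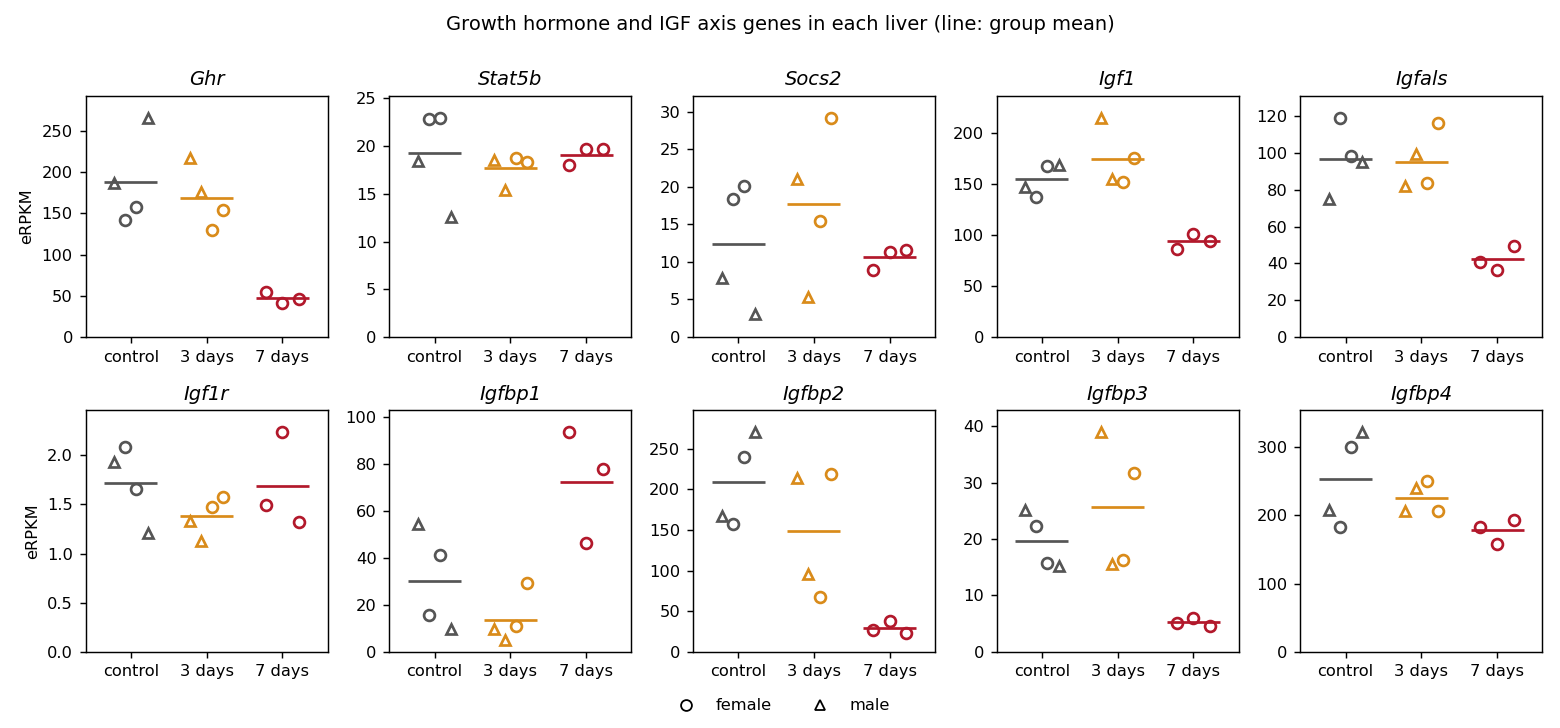
eRPKM of each of the 10 members in each liver, by group, with circles for female and triangles for male livers and a line at the group mean. The 7-day livers lie below every control for Ghr, Igf1, Igfals, Igfbp2 and Igfbp3, and overlap the controls for the other 5.

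At 3 days 0 of 10 members were called with limma, against 0.0421% of all genes tested, 6 in number, and 0 of 10 had an unadjusted p under 0.05, as did 1718 of all genes. limma-voom on recovered reads also called 0. No member had 3-day livers outside the control range, against 5.64% of all genes. The 95% intervals of the log2 fold changes at 3 days still reached from -0.59 to 0.32 for Ghr, from -0.16 to 0.48 for Igf1 and from -2.29 to 0.12 for Igfbp1, so changes of that size were not excluded. The step from 3 to 7 days was called for 6 of 10 members, against 19.3% of all genes: the same 5 that fell against control, and Igfbp1, which rose. For these 6 and for Igfbp4 the 7-day livers lay outside the 3-day range, against 45.1% of all genes. This comparison shares its 7-day livers with that against control.

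**Figure D3:**
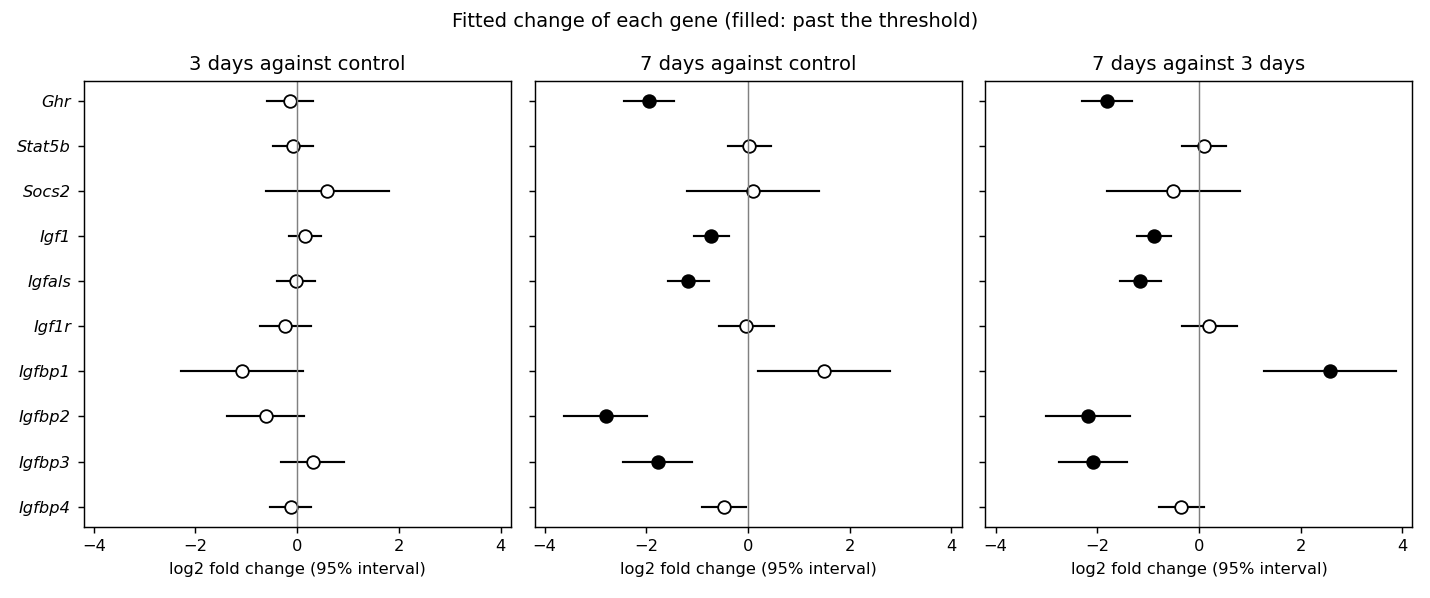
Log2 fold change with its 95% interval (horizontal axis) for each member in the 3 comparisons, from limma, with filled points past the threshold. All intervals cross 0 at 3 days, and at 7 days against control those of Ghr, Igf1, Igfals, Igfbp2 and Igfbp3 lie below it with a call. The interval of Igfbp4 also lies below 0 and that of Igfbp1 above it, without a call.

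Ghr (chromosome 15, 3267760 to 3533492, minus strand), the receptor through which growth hormone acts on hepatocytes, lay at 186, 142, 158 and 266 eRPKM in controls 1 to 4, at 217, 176, 130 and 154 at 3 days, and at 54.6, 41.7 and 46.2 at 7 days. The 3-day livers overlapped the controls and all 3 of the 7-day livers lay far below both. The means were 188 ± 55.1 (SD, n = 4), 169 ± 37.1 (SD, n = 4) and 47.5 ± 6.54 (SD, n = 3), a 3.96-fold lower mean at 7 days than in controls. On the log2 scale this was a difference of -1.94 (SE 0.23, adjusted p = 4.4e-05), and the step from 3 to 7 days was -1.80 (SE 0.23, adjusted p = 9.67e-05). Male livers were the higher ones among controls, and among female livers the 7-day value was -1.66 (adjusted p = 0.000311). The lowest control was also the deepest library, control 2, at 142 eRPKM, and the highest the shallowest, control 4. The 7-day libraries were near control 2 in depth, so the fold against the control mean can overstate the fall. The call held with depth as a covariate, and the part of depth was not otherwise tested. In whole liver, fewer hepatocytes and less mRNA per hepatocyte cannot be told apart.

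Stat5b (chromosome 11, 100642045 to 100712038, minus strand), which carries the signal of the receptor to the nucleus, lay at 18.5, 22.9, 23.0 and 12.6 eRPKM in controls, at 18.6, 15.4, 18.8 and 18.3 at 3 days and at 18.0, 19.7 and 19.7 at 7 days. The 3 groups overlapped. Its log2 fold change at 7 days was 0.03 with a 95% interval from -0.40 to 0.46, and it turned to -0.31 under quantile normalization and to -0.23 under median-ratio size factors. Socs2 (chromosome 10, 94847996 to 94879814, minus strand), a STAT5 target that damps the signal, was the most variable of the 3, at 7.90, 18.3, 20.1 and 2.99 eRPKM in controls, 21.0, 5.32, 15.4 and 29.2 at 3 days and 8.90, 11.3 and 11.5 at 7 days. The 7-day livers lay between the male controls, at 7.90 and 2.99, and the female controls, at 18.3 and 20.1. Its log2 fold change was 0.09 over all livers (95% interval -1.21 to 1.39) and -0.84 among female livers (adjusted p = 0.0458), neither past the threshold. It turned to -0.16 under size factors and to -0.45 under quantile normalization.

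Among the 13 other genes of growth hormone receptor signalling, 4 rose at 7 days, 0 fell and 9 were not called, with a median log2 fold change of 0.48 beside 0.26 over all genes, of which 18.0% rose. At 3 days 0 were called. The 4 that rose were 3 protein tyrosine phosphatases and the adaptor Sh2b1, which binds JAK2. Ptpn1, a phosphatase that removes phosphate from JAK2 and the insulin receptor, lay at 9.19, 9.35, 11.2 and 7.51 eRPKM in controls, 7.72, 12.7, 15.7 and 11.9 at 3 days and 41.3, 34.3 and 47.1 at 7 days, so that every 7-day liver lay above every other liver. Ptpn6, which encodes the phosphatase SHP-1 and is abundant in blood cells, lay at 9.03, 12.2, 12.8 and 6.29 in controls and at 40.5, 39.0 and 45.9 at 7 days. Their log2 fold changes were 2.08 (SE 0.23, adjusted p = 2.97e-05) and 2.05 (SE 0.28, adjusted p = 0.000129). Ptpn11, which encodes SHP-2, went from 23.9 ± 3.13 (SD, n = 4) to 48.2 ± 3.31 (SD, n = 3), a log2 fold change of 1.0 (adjusted p = 0.000289). These 3 kept their call under all 25 alternatives tried, while Sh2b1 (0.98, adjusted p = 0.00582) lost it under 11 of them, among them leaving out control 1 or 4 or any 7-day liver (adjusted p = 0.0113 to 0.0233). The receptor kinase Jak2 lay at 13.4 ± 3.54 (SD, n = 4) in controls and at 15.2 ± 1.80 (SD, n = 3) at 7 days, and Cish, a STAT5 target like Socs2, at 16.5 ± 8.79 and 18.7 ± 3.35, neither called. Irs2, an insulin receptor substrate, was called only in the step from 3 to 7 days, at 1.60 (adjusted p = 0.0053). Kupffer cell and macrophage markers moved with Ptpn6: 6 of 7 tested rose at 7 days, and their summed level was 188 to 393 eRPKM in controls and 792 to 850 at 7 days. Among female livers, with sex as a covariate and under size factors 5 of these markers rose. With depth as a covariate 4 did, and under quantile normalization 7. No marker of that list was at 0 in any liver, and its part in the Ptpn6 result was not tested.

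Igf1 (chromosome 10, 87321010 to 87399792, plus strand), the hormone that the liver releases in answer to growth hormone, lay at 147, 137, 168 and 169 eRPKM in controls, at 215, 155, 152 and 175 at 3 days and at 85.9, 101 and 94.0 at 7 days. The 7-day livers lay together below every other liver. Its means were 155 ± 15.7 (SD, n = 4), 175 ± 29.0 (SD, n = 4) and 93.8 ± 7.72 (SD, n = 3), a 1.66-fold lower mean at 7 days, with a log2 fold change of -0.72 (SE 0.16, adjusted p = 0.00325). The step from 3 to 7 days was -0.88 (SE 0.16, adjusted p = 0.00114). Of the 5 members that fell, this was the least stable call. The direction held under all 26 alternatives, but the 7-day call was lost in 9 of them: at -0.67 with sex as a covariate (adjusted p = 0.0125), at -0.70 among female livers (adjusted p = 0.0167), and when control 3, 7-day liver 1 or 7-day liver 3 was left out (adjusted p = 0.0112, 0.0217 and 0.0164). Under quantile normalization it was -0.26 (adjusted p = 0.105).

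Igfals (chromosome 17, 25014600 to 25018955, plus strand), which encodes the acid-labile subunit that holds IGF1 and IGFBP3 in circulation, lay at 75.1, 119, 98.1 and 95.2 eRPKM in controls, 81.9, 99.4, 83.7 and 116 at 3 days and 40.7, 36.5 and 49.7 at 7 days. Controls and 3-day livers shared a range, and the 7-day livers lay below it. The mean fell from 96.9 ± 18.1 (SD, n = 4) in controls to 42.3 ± 6.70 (SD, n = 3) at 7 days, a log2 fold change of -1.18 (SE 0.19, adjusted p = 0.000372), and among female livers it was -1.36 (adjusted p = 0.00174). The call held under all 26 alternatives. Its partner Igfbp3, the main carrier of IGF1 in blood, which in liver is made largely outside hepatocytes, lay at 25.1, 22.3, 15.7 and 15.3 eRPKM in controls, 38.9, 15.6, 16.3 and 31.8 at 3 days and 5.20, 6.08 and 4.49 at 7 days. The 7-day livers lay below every other liver. The mean was 3.72-fold lower at 7 days than in controls, at a log2 fold change of -1.78 (SE 0.31, adjusted p = 0.000759), and 4.88-fold lower than at 3 days, at -2.08 (SE 0.31, adjusted p = 0.000323).

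Markers of stellate cells and of endothelial cells, which are among the non-parenchymal cells of the sinusoid, were read beside Igfbp3. Kupffer cell and macrophage markers, given above with their alternatives, had 6 of 7 tested called higher at 7 days over all livers. Of 7 stellate markers tested, 1 fell at 7 days and 0 rose: Reln, at 14.0 ± 4.54 (SD, n = 4) in controls and 5.53 ± 0.46 (SD, n = 3) at 7 days, a log2 fold change of -1.22 (adjusted p = 0.00374). Under quantile normalization 4 fell. Their summed level was 156 to 210 eRPKM in controls and 104 to 119 at 7 days. Of 7 endothelial markers 3 rose, Lyve1, Cdh5 and Stab1, and 0 fell, with sums of 123 to 219 and 226 to 264. Cdh5 alone was called with depth as a covariate and with controls 1 and 2 only, and Lyve1 was lost under size factors. From 3 to 7 days the same 3 rose and Clec4g fell. No marker of these lists was at 0. The part of these cell types in the Igfbp3 result was not tested.

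Igfbp2 (chromosome 1, 72871077 to 72899048, plus strand), a hepatocyte binding protein, showed the widest fall of the 10 members. It lay at 167, 157, 240.2 and 270.1 eRPKM in controls and at 27.2, 37.5 and 23.1 at 7 days, with no overlap. The 3-day livers lay at 214, 96.0, 67.3 and 219: livers 1 and 4, a male and a female, lay among the controls, and livers 2 and 3, also a male and a female, between the controls and the 7-day livers. The labels of 3-day livers 1 and 4 carry the suffix MF, whose meaning they do not give, as does that of 7-day liver 2, the highest of its group for Igfbp2. Igfbp3 was likewise higher in 3-day livers 1 and 4, at 38.9 and 31.8 eRPKM, than in livers 2 and 3, at 15.6 and 16.3. The part of whatever the suffix marks was not tested. The log2 fold change of Igfbp2 at 7 days was -2.80 (SE 0.38, adjusted p = 0.00012), a 7.12-fold lower mean, and the step from 3 days was -2.18 (SE 0.38, adjusted p = 0.000912). Among female livers that step was -2.06 and missed the threshold (adjusted p = 0.0108). At 3 days against control Igfbp2 was at -0.62 with a 95% interval from -1.38 to 0.14. Among controls, Ghr, Igfbp2, Igfbp4 and Igf1 were each lowest in control 2, the deepest library, and highest in control 4, the shallowest. The 7-day libraries were near control 2 in depth, where Igfbp2 lay at 157 eRPKM, so a fold against the control mean can overstate the fall. The call of Igfbp2 held with depth as a covariate, and the part of depth was not otherwise tested.

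Igfbp1, the insulin-repressed binding protein, spread widely before induction, at 54.5, 15.7, 41.4 and 9.70 eRPKM in controls. It lay at 9.58, 4.93, 11.1 and 29.3 at 3 days and at 93.6, 46.3 and 78.1 at 7 days. The 7-day livers all lay above the 3-day livers, and 2 of 3 lay above every control. Against control the log2 difference was 1.5 (SE 0.60, 95% interval 0.20 to 2.80) and did not pass (adjusted p = 0.0657). The step from 3 to 7 days was 2.58 (SE 0.60, adjusted p = 0.00592). That call was lost under 9 of 26 alternatives, with the same direction in all of them: at 1.92 among female livers (adjusted p = 0.0243), at 2.22 with sex as a covariate (adjusted p = 0.0214), and when 3-day liver 1 or 2 or any 7-day liver was left out (adjusted p = 0.0124 to 0.0283). Feeding state at collection is not given in the labels.

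Igfbp4 (chromosome 11, 98902558 to 98913969, plus strand), a binding protein made in many cell types, was the most abundant member in every group. It lay at 208, 183, 300.1 and 321 eRPKM in controls, 207, 240.5, 249.97 and 206 at 3 days and 183, 158 and 193 at 7 days. The ranges of controls and 7-day livers overlapped. Control 2, near the 7-day libraries in depth, lay within their range at 183. The 7-day difference was -0.47 on the log2 scale (SE 0.20, adjusted p = 0.0843) and turned to 0.23 under quantile normalization. At 35.02% to 75.8% of the read density of Alb it lay nearest of all members to the densest genes.

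The make-up of binding protein mRNA was compared as shares of the summed eRPKM of 7 binding proteins, with no test. Igfbp2 made up 36.2% ± 2.64 (SD, n = 4) of the sum in controls, 29.3% ± 11.3 (SD, n = 4) after 3 days of induction and 8.77% ± 3.10 (SD, n = 3) after 7. Igfbp1 made up 5.52% ± 4.06, 2.69% ± 1.72 and 21.0% ± 5.62 in the same groups, and its lowest share at 7 days, 15.1%, lay above its highest in controls, 10.8%. Igfbp4 held the largest share in each group on average, at 43.8%, 48.3% and 52.1%. The sum itself was 572 ± 117 (SD, n = 4) in controls and 341 ± 30.9 (SD, n = 3) at 7 days. Of the other 4 binding proteins, 3 were tested and 0 called in any comparison: Igfbp7, found mostly in vessels, lay at 55.7 ± 7.98 (SD, n = 4) in controls and 52.2 ± 6.95 (SD, n = 3) at 7 days, Igfbp5 at 1.84 to 12.97 eRPKM and Igfbp6 at 0 to 1.87 over all livers, and Igfbpl1 was too low to test.

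**Figure D4:**
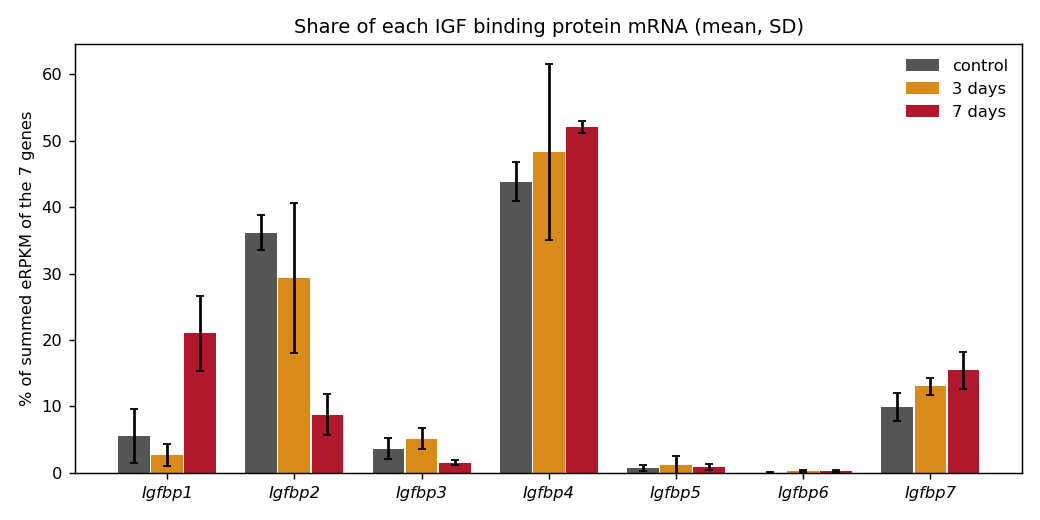
Share of each of 7 IGF binding protein genes in their summed eRPKM (vertical axis, percent), as mean with SD over 4 control, 4 3-day and 3 7-day livers. Igfbp2 goes from 36.2% in controls to 8.77% at 7 days and Igfbp1 from 5.52% to 21.0%, while Igfbp4 stays the largest.

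Igf1r (chromosome 7, 75097713 to 75371484, plus strand), the receptor for IGF1, was the lowest member in every group, at 1.94, 2.08, 1.66 and 1.21 eRPKM in controls, 1.33, 1.12, 1.48 and 1.58 at 3 days and 1.49, 2.23 and 1.32 at 7 days, on 20 to 176 reads. The groups overlapped, and the log2 fold change at 7 days was -0.03 (95% interval -0.57 to 0.51). The insulin receptor Insr was far more abundant, at 59.4 ± 5.53 (SD, n = 4) in controls and 48.7 ± 4.19 (SD, n = 3) at 7 days, and was not called (adjusted p = 0.147). Igf2r, which takes IGF2 up for degradation, lay at 21.6, 24.8, 18.6 and 14.5 eRPKM in controls and 35.8, 34.8 and 40.4 at 7 days and rose by 0.90 on the log2 scale (SE 0.20, adjusted p = 0.00358). Among female livers that value was 0.77 and did not pass (adjusted p = 0.021), nor did it pass when control 3 or any 7-day liver was left out (adjusted p = 0.0106 to 0.0219). With depth as a covariate it was 0.54 (adjusted p = 0.054), and the call of Igf2r was lost under 9 of 25 alternatives in all. Igf2 itself lay at 0.0863 to 0.770 eRPKM over all livers, and Insrr was too low to test. Of 3 Igf2 mRNA binding proteins, Igf2bp1 rose, at 0.0594, 0.105, 0.144 and 0.555 eRPKM in controls and 1.17, 2.82 and 1.22 at 7 days (log2 fold change 1.61, adjusted p = 0.00145, not past the threshold under quantile normalization). The highest value stood in 7-day liver 2, which also had the most genes above 0, 19280. Of 5 proteases of binding proteins and their inhibitors, Stc2 and Htra1 could be tested and were not called in any comparison.

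Downstream of the insulin and IGF receptors, 4 of 14 genes rose at 7 days, 1 fell and 9 were not called, beside 18.0% of all genes that rose and 5.77% that fell. The median was 0.29 beside 0.26 over all genes, and 0 were called at 3 days. Among female livers, with sex or depth as a covariate and with controls 1 and 2 only, 1 rose, Grb10, and 1 fell, Sos1. Grb10, an adaptor that inhibits both receptors, lay at 3.08, 3.55, 2.43 and 2.67 eRPKM in controls, 3.95, 2.94, 2.36 and 3.72 at 3 days and 8.88, 12.9 and 8.45 at 7 days. Every 7-day liver lay above every other liver, at a log2 fold change of 1.61 (SE 0.24, adjusted p = 0.000274), and the call held under all 25 alternatives. Sos1, which activates RAS, fell from 20.9 ± 3.54 (SD, n = 4) to 10.3 ± 2.05 (SD, n = 3), at -0.99 (SE 0.21, adjusted p = 0.00269), and lost its call only when 7-day liver 1 or 3 was left out. Pik3cb, Akt1 and Gab1 rose by 1.32, 0.93 and 1.26, but each lost its call whenever 1 of the 7-day livers was left out (adjusted p = 0.0153 to 0.0374), and under 9, 16 and 10 of 25 alternatives in all. Leaving out control 3 or 4 also ended the calls of Pik3cb and Gab1, and leaving out any control or 3-day liver 4 that of Akt1 (adjusted p = 0.0104 to 0.0259). The other kinase subunits and the transcription factors Foxo1 and Foxo3 were not called in any comparison. Over the 63 listed genes outside the 10 members, 57 were tested, and 10 rose and 4 fell at 7 days, near the share of all genes called, 23.8%. Among female livers 54 were tested, and 5 rose and 10 fell, where 15.7% of all genes were called in either direction.

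Genes whose sex difference depends on growth hormone were read within female livers, because all 7-day livers were female. Over all livers 0 of 10 female-biased genes tested were called at 7 days, with a median of 0.11. Among female livers 6 of 10 fell and 0 rose, with a median of -1.43 beside 0.19 over the 13844 genes tested there. Of those 13844 genes 15.7% were called in either direction. With sex as a covariate over all livers 5 of 10 fell. A1bg, a plasma glycoprotein gene, lay at 151 and 126 eRPKM in the 2 female controls, at 134 and 82.3 in the 2 female 3-day livers and at 1.91, 1.37 and 1.15 at 7 days. The male controls lay at 0.131 and 2.04, a range that holds all 3 of the 7-day livers. Among female livers the log2 fold change of A1bg was -6.15 (SE 0.25, adjusted p = 9.68e-06). The cytochrome P450 genes Cyp2a4, Cyp3a16 and Cyp3a44 followed, at -4.55, -4.80 and -5.02, and the prolactin receptor Prlr at -1.79 (adjusted p = 0.00026). Cyp2a4 has close copies that can share reads, as have the Cyp3a and Cyp2b genes, so their split is uncertain.

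The list did not move as a block. Cux2, a female-specific transcription factor, lay at 12.005 and 15.4 eRPKM in female controls and at 8.93 to 9.99 at 7 days, against 0.275 and 0.428 in male controls, and was not called. Cyp2b9 fell by 1.08 on the log2 scale but lay at 83.8 to 101 eRPKM, far above the male controls at 0.531 and 4.55. Cyp3a41a was not analysed here.

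The male-biased list was mixed. Over all livers, where all-female 7-day livers stood against controls of both sexes, 3 of 9 fell at 7 days and 0 rose. Female controls held less of each of these mRNAs than male controls did. Among female livers 2 of 8 tested fell and 0 rose, with a median of -1.36, where 15.7% of all genes were called in either direction. Elovl3, a fatty acid elongase, lay at 10.04 and 9.44 eRPKM in female controls and at 0, 0.347 and 0 at 7 days, a log2 fold change of -4.10 among female livers (SE 0.46, adjusted p = 0.000387). Cyp7b1, an oxysterol hydroxylase, lay at 35.4 and 19.2 in female controls and at 5.94, 3.61 and 6.58 at 7 days, a log2 fold change of -2.22 (SE 0.32, adjusted p = 0.00124). Over all livers the call of Cyp7b1 was lost when control 1 or 4 or any 7-day liver was left out (adjusted p = 0.0108 to 0.0205). Among female livers, with control 2 left out 1 of these genes was called, and with 3-day liver 3 or 4 left out 4 were. Slco1a1 (-2.15, adjusted p = 0.0118) and Hsd3b5 (-3.56, adjusted p = 0.0587) did not pass among female livers. Cyp4a12a, Mup20 and Cyp2d9 were higher in the 7-day livers than in female controls without being called. Mup20 and Cyp2d9 lay at 193 to 203 and 71.7 to 94.7 at 7 days, above the female controls at 106 to 132 and 35.9 to 48.5. Cyp4a12a lay at 2.41 to 4.41 at 7 days and at 1.16 and 1.31 in female controls. The Mup, Cyp2d and Cyp4a families hold near-identical copies, so these levels are uncertain.

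**Figure D5:**
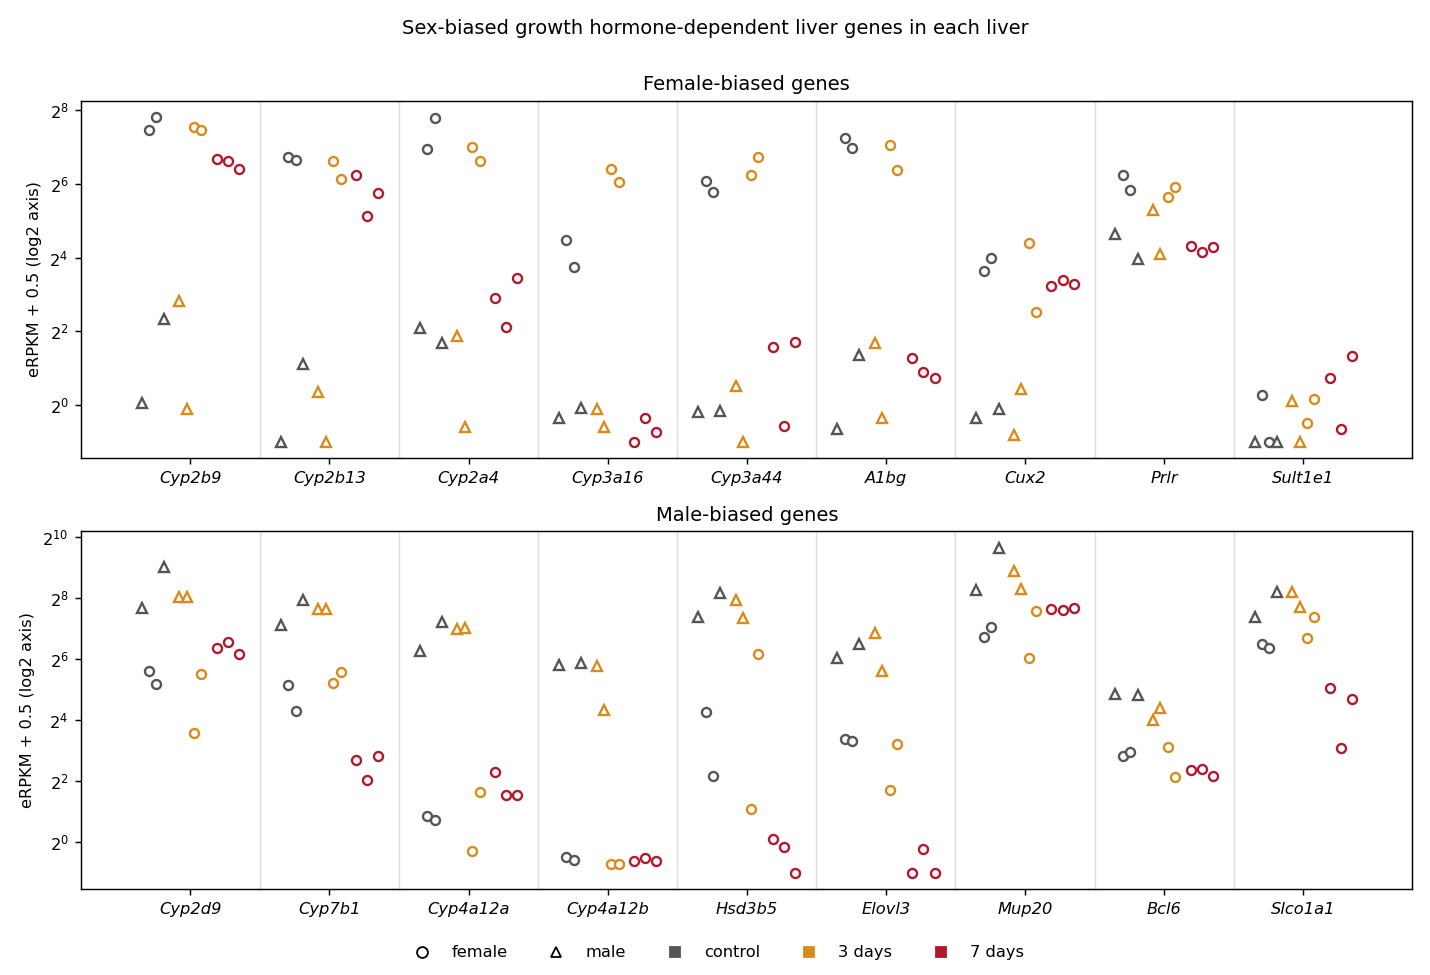
eRPKM + 0.5 on a log2 axis for 9 female-biased (top) and 9 male-biased (bottom) growth hormone-dependent genes, 1 point per liver, with circles for female and triangles for male livers and colour for the group. The 7-day livers, all female, lie within the range of male controls for A1bg and Prlr and far above it for Cux2, Cyp2b9 and Cyp2b13.

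Hepatocyte markers were read beside these results because Ghr, Igf1, Igfals and Igfbp2 are chiefly hepatocyte genes in liver. Of 8 markers tested 2 fell at 7 days, Ttr at -1.40 (adjusted p = 0.0011) and Tat at -0.88 (adjusted p = 0.00733), and 0 rose. Tat was not called among female livers, under size factors or quantile normalization, or with sex or depth as a covariate. Their median was -0.85, but -0.0195 under quantile normalization, -0.19 with depth as a covariate and -0.32 with controls 1 and 2 only. Their summed level was 1586 to 4479 eRPKM in controls, highest in control 4, the shallowest library, and 1285 to 1431 at 7 days. The list includes Alb, Apoa1 and Apob, whose read density hardly followed depth. Hnf4a, the transcription factor that defines hepatocytes, lay at 159 ± 19.3 (SD, n = 4) in controls and 124 ± 7.40 (SD, n = 3) at 7 days and was not called (adjusted p = 0.0662). All 5 cycling cell markers rose at 7 days, and their sums ran from 6.75 to 17.8 eRPKM without induction, from 14.2 to 102 after 3 days and from 98.9 to 151 after 7. With depth as a covariate 3 of them were called. Cholangiocyte and lymphocyte markers had 1 call each, Krt7 and Cd4, both higher, on sums of at most 112 and 9.56 eRPKM. With depth as a covariate and with controls 1 and 2 only neither was called, and Cd4 was also lost among female livers and under size factors and quantile normalization. In controls Krt7, Epcam, Cftr, Cd3e and Cd8a were at 0 in at least 1 liver. The part of these cell types in the members' results was not tested.

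The order of the members by mean level shifted between groups. In controls it ran Igfbp4, Igfbp2, Ghr, Igf1, Igfals, Igfbp1, Igfbp3, Stat5b, Socs2, Igf1r, and the ranges of all neighbours overlapped except those of Igf1 and Igfals, Igfals and Igfbp1, and Socs2 and Igf1r. At 3 days Igf1 stood after Igfbp4, and Igfbp1 was next to last. At 7 days the order ran Igfbp4, Igf1, Igfbp1, Ghr, Igfals, Igfbp2, Stat5b, Socs2, Igfbp3, Igf1r. Igfbp4 then stood clear of Igf1, the neighbours from Igf1 down to Igfbp2 overlapped in turn, and those from Igfbp2 down to Igf1r did not.

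Genes with the pattern most like a member were found by the smallest root mean square difference of mean-centred log2(eRPKM + 0.5) over the 11 livers, among 12568 other genes. For Igf1 they were Ndfip1, Synj2bp and Rnf13, at 0.081, 0.11 and 0.11 log2 units, beside a median of 0.64 over all genes compared. Ndfip1 lay between 125 and 166 eRPKM in controls, between 128 and 193 at 3 days and between 87.5 and 88.6 at 7 days. For Igfals they were Pdzk1, Tmem97 and Tymp, at 0.17, 0.18 and 0.18. For Igfbp1 the nearest were far less close, Fabp4, Irs2 and Mcam, at 0.65, 0.70 and 0.71 beside a median of 1.29.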

How the data were processed

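The 10 members and all gene lists were chosen with earlier results of these data known. Per the labels, RNA was from homogenized livers and libraries were made with a TruSeq kit that keeps no strand. The submitters' processing notes name TopHat2 2.0.8, SAMtools, featureCounts 1.4.5-p1 and mm9, and low-quality bases were masked. How duplicate reads were treated is not given in the sources used here. The authors deposited 1 RPKM value (called eRPKM) for each gene and liver, from reads on exons. In the same deposited table are columns of the authors' DESeq2 comparison of the 7-day with the control livers. There the authors give a mean signal of scaled reads, a change on the log2 scale and a p-value after adjustment. These columns were not used.

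eRPKM steps gave whole reads for 100% of 177553 values above 0 (within 0.1 of a read). These reads gave depth, 1251396 to 5941357 per library, read density, and the fit with limma-voom. The main test was limma 3.58.1 (R 4.3.3, eBayes with trend) on log2(eRPKM + 0.5), with genes at 0.5 eRPKM or more in 3 libraries, 3 groups in 1 fit and Benjamini-Hochberg adjustment over 14244 genes. A fold change on this scale understates the change of low genes. Fits were tested on simulated data. Some listed genes are counted but not reported here by name. Each member was also compared by a two-sided exact permutation test, adjusted over 30 tests. With 35 splits its smallest p is 0.0286. It gave that for Ghr, Igf1, Igfals, Igfbp2 and Igfbp3 at 7 days against control (0.0857 adjusted). In the step from 3 to 7 days it gave the same for Ghr, Igf1, Igfals, Igfbp3 and Igfbp4, the last not called by limma. No member passed 0.05 after adjustment. The labels do not say that the livers of a group were collected independently, so p-values measure the spread between these libraries. Named were the members, called or list-describing genes, markers at 0 in a library, and the 3 nearest genes to Igf1, Igfals and Igfbp1. Tables and permutation tests were run in Python 3.11.15 with pandas 2.3.3 and numpy 2.4.6. The adjustment of the permutation p-values came from scipy 1.17.1, and figures from matplotlib 3.10.9. Promoter windows and motifs came from RefSeq (GRCm38.p6), and gene positions from GENCODE M1 on mm9.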

Additional observations from a re-analysis of the deposited data

Results flagged for a closer look

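The change from 3 to 7 days passed the threshold of limma for 6 of 10 members, so that livers at 3 and at 7 days of induction differed by test. On the log2 scale it was -1.80 for Ghr, -0.88 for Igf1, -1.16 for Igfals, 2.58 for Igfbp1, -2.18 for Igfbp2 and -2.08 for Igfbp3. All 3 of the 7-day livers lay beyond the 3-day range for each. Depth and sex moved with time and their part was not tested apart from the alternatives given below. The length of the doxycycline diet moved with time as well, and its part was not tested.

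Of 20 sets of 4 livers, 1 had a liver apart from the rest by Dixon's criterion: Stat5b in 3-day liver 2, at 15.4 eRPKM beside 18.3 to 18.8 eRPKM in the others, a gap of 0.868 of the whole range. Chance flags about 1 in 20 such sets.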

How the results depend on the processing

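Over 26 alternatives, Ghr, Igfals, Igfbp2 and Igfbp3 kept direction and call at 7 days against control, and no called member changed direction in any. Of the alternatives to called values 265 kept their side of the threshold and 21 did not. The cause was not tested. The numbers of the livers did not pair them (correlations of deviations from -0.222 to 0.269 between same-numbered livers). With the replicate block Igf1 at 7 days was -0.70 (adjusted p = 0.0142), Socs2 -0.0133 and Stat5b -0.0562. The step from 3 to 7 days had 3 members called among female livers, where Igf1 (adjusted p = 0.0116) and Igfbp2 (adjusted p = 0.0108) missed the threshold besides Igfbp1. The share of all genes called in that step among female livers was not counted. Alternatives using only controls 1 and 2, and those rerun within female livers, were chosen after seeing the data. Igf1 at 7 days was also past it neither with depth as a covariate (-0.55, adjusted p = 0.0206) nor with controls 1 and 2 only (-0.60, adjusted p = 0.0245).

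Of the listed genes outside the members, 14 were called at 7 days against control, 6 with depth as a covariate, 8 with controls 1 and 2 only, and 7 to 15 with 1 liver left out (9 without control 4, and 7, 8 and 7 without 7-day livers 1, 2 and 3). In the step from 3 days 12 were called, 7 with depth as a covariate and 6 to 17 with 1 liver left out. With depth as a covariate 0 genes of both sex-biased lists were called over all livers. Male-biased genes that fell among female livers numbered 1 to 4 with 1 liver left out.

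Changes of direction all concerned members that were not called. At 7 days against control Socs2 was -0.16 under size factors, -0.45 under quantile normalization, -0.61 with sex and -0.66 with depth as a covariate, -0.84 among female livers, -0.0592 by limma-voom and -0.19 with controls 1 and 2 only. Stat5b was -0.23, -0.31, -0.15, -0.26, -0.26, -0.0202 and -0.10 in the same order. With 1 liver left out, Socs2 ran from -0.43 to 0.42, Stat5b from -0.16 to 0.12 and Igf1r from -0.20 to 0.0881. Quantile normalization gave Igfbp4 0.23 at 7 days against control and 0.28 against 3 days. From 3 to 7 days Igf1r was -0.37 under quantile normalization and -0.00588 with depth as a covariate, and Stat5b -0.13 under size factors, -0.12 under quantile normalization, -0.0686 with sex and -0.11 with depth as a covariate. At 3 days, controls 1 and 2 alone gave Ghr 0.0288 and Igfbp4 0.21, and with 1 liver left out Ghr ran from -0.27 to 0.0432, Igfals from -0.13 to 0.0862 and Stat5b from -0.26 to 0.018. Depth was lowest in control 4, with 1251396 reads on genes, and the members with the fewest reads in a library were Igfbp1, Igf1r and Socs2, at 19, 20 and 25.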
